A study of Mus musculus with 15 samples.

Results

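Transcripts of 9 synaptic adhesion genes were examined in bulk RNA sequencing of dissected mouse medial prefrontal cortex (mPFC): the neurexins Nrxn2 and Nrxn3, the neuroligins Nlgn1, Nlgn2 and Nlgn3, and the leucine-rich repeat transmembrane genes Lrrtm1, Lrrtm2, Lrrtm3 and Lrrtm4. The rule for membership is gene family and name, and they are 9 of the 27179 gene identifiers in the deposited count table. All 9 passed the filter on low counts that left 16816 genes tested. The 15 libraries came from C57BL/6J mice in 4 groups: after fear extinction and ABX treated (post ABX, n = 4), after extinction and not ABX treated (post non-ABX, n = 4), before extinction and ABX treated (pre ABX, n = 4), and before extinction and not ABX treated (pre non-ABX, n = 3, replicates 1, 3 and 4). In microbiota work ABX stands for antibiotics, usually several given together. The labels name no agent, dose or age and do not say whether a library holds 1 animal, so each p-value covers the spread among libraries, which may in part be technical. No genotype other than the shared strain was named.

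Neurexins sit in the presynaptic membrane and reach across the synaptic cleft to several kinds of postsynaptic partner. Neuroligins and Lrrtm proteins are such partners: Nlgn1 is found mainly at excitatory synapses, Nlgn2 mainly at inhibitory ones and Nlgn3 at both, while Lrrtm proteins act at excitatory synapses, where Lrrtm1 and Lrrtm2 bind neurexins and Lrrtm3 and Lrrtm4 can also bind heparan sulfate proteoglycans. Alternative splicing of neurexin and neuroligin transcripts sets which partners bind. Counts per gene, the only unit available, do not separate splice forms or the alpha and beta transcripts of a neurexin gene. The mPFC takes part in the extinction of conditioned fear.

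Total counts ran from 44254906 to 57929503 per library. Summed markers of cortical excitatory neurons lay between 6091 and 7536 CPM (counts relative to the TMM-adjusted library total) in ABX libraries and between 6605 and 7861 CPM in non-ABX libraries, and those of inhibitory neurons between 787 and 920.2 CPM in ABX and between 809.7 and 858 CPM in non-ABX libraries. Of 8 endothelial markers, all 8 were lower with ABX, with summed levels of 161 to 224 CPM in ABX and 236 to 271 CPM in non-ABX libraries. 6 of 7 pericyte and smooth muscle markers were lower too, at 74.1 to 99.0 CPM in ABX and 93.5 to 113 CPM in non-ABX libraries. Averaged over stage, 6 of 8 cortical excitatory markers (median log2 fold change -0.09) and 4 of 5 oligodendrocyte precursor markers (-0.24) were also lower with ABX. By contrast, 4 of 7 inhibitory neuron markers (0.02) and 5 of 7 astrocyte markers (0.01) were higher. In bulk tissue, fewer cells of a type cannot be told apart from less RNA per cell. The part of vascular cells in the values of the 9 genes was not tested.

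The libraries also differed in how counts depended on the GC content of a transcript, and the 9 genes span nearly the whole range of that property. Over the longest transcript, GC content was 62.4% in Nrxn2, 60.7% in Nlgn2, 54.7% in Lrrtm1, 49.3% in Nlgn3, 47.5% in Nrxn3, 44.5% in Lrrtm3, 38.9% in Nlgn1 and 38.4% in both Lrrtm2 and Lrrtm4, against a median of 49.9% over the tested genes with a value. Nrxn2 stood at the 98.6th percentile of those genes and Lrrtm4 at the 2.43rd. The contrast holds between close paralogs and within conserved coding sequence. Nlgn2 and Nlgn1 encode the same residue at 548 of 790 aligned positions. Their most similar stretch of 40 codons within 1 exon is shown because it codes for 38 identical residues in both genes with different letters, with G and C in capitals.
Nlgn2: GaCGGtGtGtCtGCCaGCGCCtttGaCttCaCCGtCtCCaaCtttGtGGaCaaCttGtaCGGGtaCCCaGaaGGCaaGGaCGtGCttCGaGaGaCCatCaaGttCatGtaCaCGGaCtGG
Nlgn1: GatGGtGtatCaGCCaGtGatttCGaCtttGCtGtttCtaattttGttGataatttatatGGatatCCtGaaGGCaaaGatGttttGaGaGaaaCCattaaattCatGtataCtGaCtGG
The Nlgn2 stretch (chr11:69827064-69827183, minus strand, build GRCm38) holds 65 G or C in 120 bases, and the Nlgn1 stretch (chr3:25436173-25436292, minus strand) holds 41, with 88 of the 120 bases identical. The same comparison of Lrrtm1 with Lrrtm3, which share 244 of 507 aligned residues, is shown because the pair differed in how far their counts followed the libraries' GC content.
Lrrtm1: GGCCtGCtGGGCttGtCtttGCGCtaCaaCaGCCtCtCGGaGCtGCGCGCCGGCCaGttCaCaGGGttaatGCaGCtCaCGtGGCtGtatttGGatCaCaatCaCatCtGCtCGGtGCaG
Lrrtm3: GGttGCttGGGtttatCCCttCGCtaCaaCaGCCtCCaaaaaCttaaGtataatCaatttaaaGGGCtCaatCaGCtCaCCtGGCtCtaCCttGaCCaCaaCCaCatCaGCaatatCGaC
Here 28 of 40 residues and 73 of 120 bases are identical, and the Lrrtm1 stretch (chr6:77243757-77243876, plus strand) holds 70 G or C where the Lrrtm3 stretch (chr10:64089084-64089203, minus strand) holds 53.

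Per kilobase of its longest transcript, Nlgn2 had the highest level of the 9 genes, followed by Nrxn3 and Nrxn2. Over all 15 libraries Nlgn2 averaged 52.0 ± 6.61 CPM per kb (SD, n = 15), Nrxn3 42.2 ± 3.93 and Nrxn2 35.5 ± 9.96. The other 6 genes formed a lower tier: Lrrtm3 at 15.3 ± 0.778, Lrrtm2 at 13.2 ± 1.88, Lrrtm1 at 11.6 ± 2.50, Nlgn3 at 10.6 ± 1.47, Nlgn1 at 8.57 ± 1.11 and Lrrtm4 at 7.56 ± 0.705 CPM per kb. Nlgn2 lay at the 93.4th and Lrrtm4 at the 56.0th percentile of the 15332 genes with a length. The gap between Nrxn2 and Lrrtm3 held in 15 of 15 libraries, and Nlgn1 was above Lrrtm4 in 15 of 15. The other neighbours exchanged places in some libraries: Nlgn2 was above Nrxn3 in 13, Nrxn3 above Nrxn2 in 12, Lrrtm3 above Lrrtm2 in 12, Lrrtm2 above Lrrtm1 in 11, Lrrtm1 above Nlgn3 in 11 and Nlgn3 above Nlgn1 in 13 of 15. Within the neuroligins, Nlgn2 made up 73.0% ± 2.57 of the summed CPM per kb, Nlgn3 14.8% ± 0.885 and Nlgn1 12.3% ± 2.62 (SD, n = 15). Within the Lrrtm genes the shares were closer, at 32.1% ± 1.31 for Lrrtm3, 27.7% ± 3.56 for Lrrtm2, 24.3% ± 4.61 for Lrrtm1 and 15.9% ± 1.55 for Lrrtm4. A shorter transcript would raise a gene's value by the same factor in every library, and would shift the order and shares between genes. The longest transcripts held 5568 bases for Nlgn2, 8541 for Nlgn3 and 11807 for Nlgn1, while the coding sequences held 2508, 2535 and 2529. For Nrxn2 the transcript held 6667 and the coding sequence 5130 bases, and for Lrrtm2 5673 and 1545. The gap between the upper and the lower tier therefore also depends on the length used, in every library alike. These levels were not corrected for GC content.

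**Figure D1:**
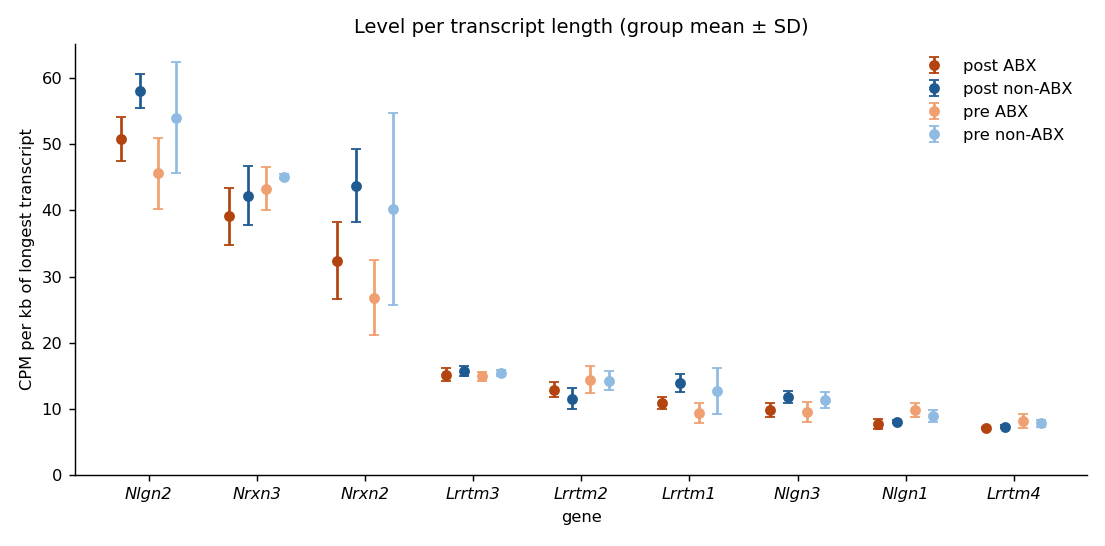
Levels of the 9 genes in CPM per kilobase of the longest transcript (y axis) for each gene (x axis), with points for the mean and bars for the SD of each group. Nlgn2, Nrxn3 and Nrxn2 average between 35.5 and 52.0 CPM per kb over all libraries and the other 6 genes between 7.56 and 15.3.

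No neurexin, neuroligin or Lrrtm gene passed an edgeR adjusted p of 0.05 in any of the 7 comparisons made. In the comparison of ABX with non-ABX averaged over stage 0 of 9 members were called where 0.624% of all genes tested were. 6 of the 9 had a negative log2 fold change, with a median of -0.08 against 0.01 over all genes tested. In that comparison 4 members had an unadjusted p under 0.05, Nrxn2, Nlgn2, Nlgn3 and Lrrtm1, and all 4 were lower with ABX, beside 30.6% of all genes under the same unadjusted threshold. For post- against pre-extinction averaged over ABX status, 0 of 9 were called against 0.963% of all genes. Unadjusted p was under 0.05 for 3 members, Nlgn1, Lrrtm2 and Lrrtm4, all lower after extinction, beside 20.4% of all genes.

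Nrxn2 (Entrez 18190, chromosome 19, 6418756 to 6533217, plus strand, build GRCm38), 1 of the neurexin genes, varied most between libraries. It had 174, 194, 254 and 243 CPM in post ABX libraries, against 286, 341, 286 and 253 CPM in post non-ABX libraries. Before extinction it had 130.2, 196, 169.7 and 218 CPM in pre ABX libraries, against 221, 379 and 204 CPM in pre non-ABX libraries. The groups overlapped at both stages, and pre ABX replicate 1 was the lowest and pre non-ABX replicate 3 the highest of all 15 libraries. Averaged over stage, the log2 fold change for ABX was -0.51 ± 0.139 (SE; adjusted p = 0.0652, edgeR), with means of 197 ± 40.7 CPM in ABX (SD, n = 8) and 282 ± 62.8 CPM in non-ABX libraries (SD, n = 7). It was -0.43 after and -0.59 before extinction, and the interaction, which tests the difference between these 2 values, was 0.15 (95% interval -0.44 to 0.74). Without pre non-ABX replicate 3 the averaged difference was -0.34, that before extinction -0.25 and the interaction -0.17, so which stage had the larger difference turned with that library. With the GC-content trend of each library removed the averaged difference was -0.14. For stage it was 0.20 ± 0.14 (SE; adjusted p = 0.386, edgeR), with means of 254 ± 53.4 CPM after (SD, n = 8) and 217 ± 78.2 CPM before extinction (SD, n = 7).

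Nrxn3 (Entrez 18191, chromosome 12, 88722701 to 90334935, plus strand) was steadier. Its levels were 266, 349, 316 and 308 CPM in post ABX and 293, 318, 355 and 371 CPM in post non-ABX libraries. They were 322, 359, 371 and 320.3 CPM in pre ABX and 356, 356 and 360.4 CPM in pre non-ABX libraries. The 3 pre non-ABX libraries lay from 355.7 to 360.4 CPM, inside the range of the pre ABX libraries. The log2 fold change was -0.08 ± 0.0638 (SE; adjusted p = 0.368, edgeR) for ABX averaged over stage and -0.12 ± 0.0638 (SE; adjusted p = 0.276, edgeR) for stage averaged over ABX status. The 95% intervals were -0.22 to 0.05 for ABX and -0.26 to 0.01 for stage, and both held 0.

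**Figure D2:**
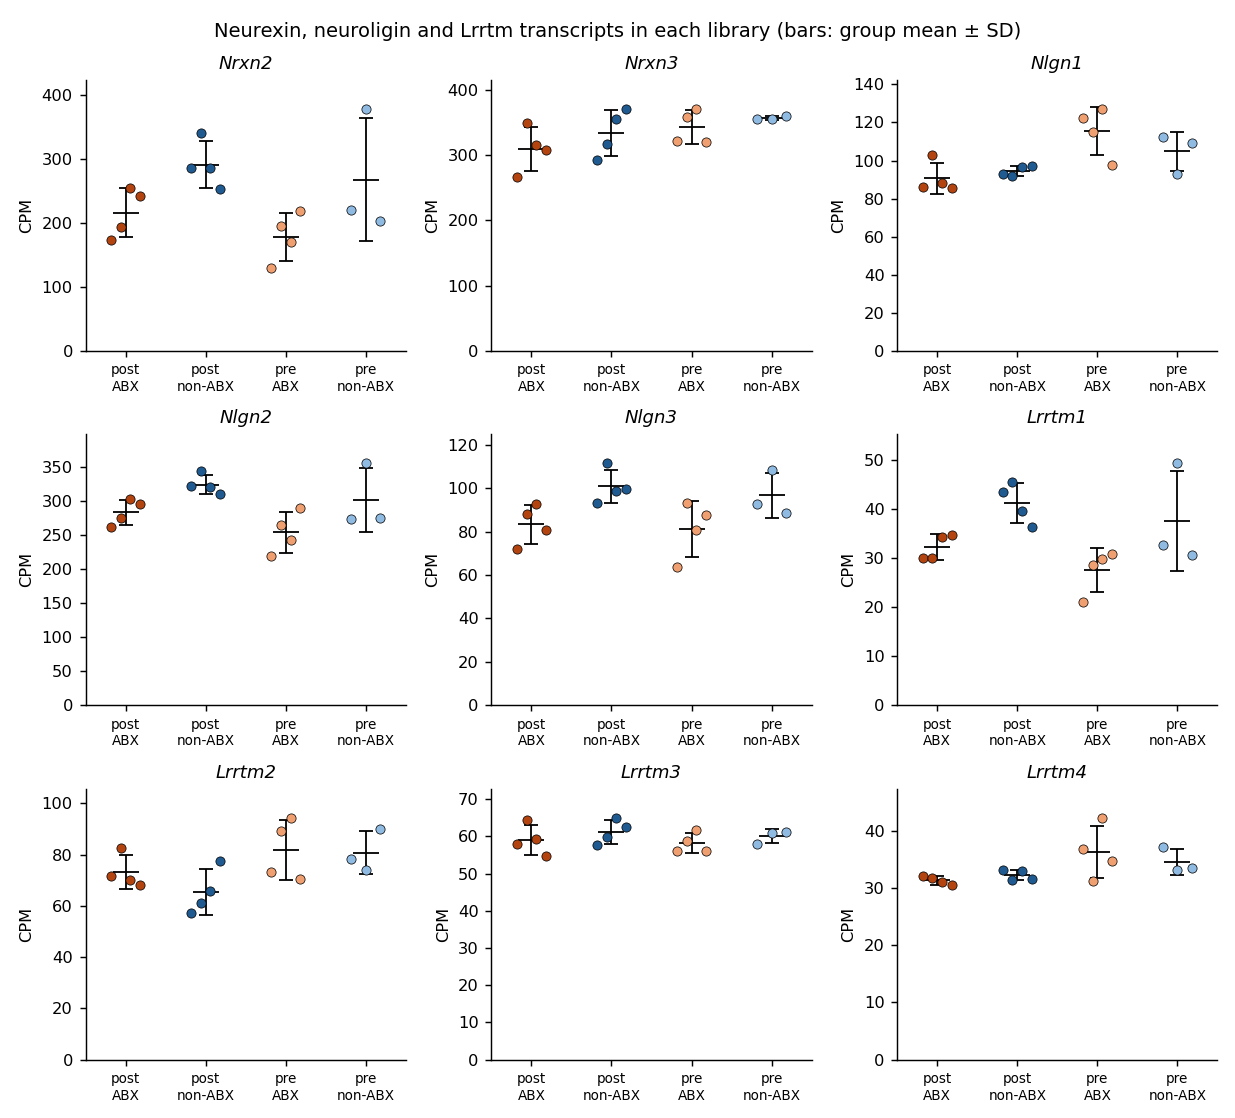
Levels of each gene in CPM (y axes) in the 4 groups (x axes), with 1 point per library and bars for the group mean and SD. Nrxn2 in pre ABX libraries sits between 130.2 and 218 CPM and in pre non-ABX libraries between 204 and 379 CPM, while Lrrtm3 stays between 54.7 and 65.0 CPM throughout.

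Nlgn2 (Entrez 216856, chromosome 11, 69823123 to 69837784, minus strand), the neuroligin of inhibitory synapses, was lower in each post ABX library than in any post non-ABX library. It had 261, 274, 302 and 295 CPM in post ABX libraries, against 322, 343, 319.9 and 309.6 CPM in post non-ABX libraries. Before extinction it had 219, 264, 243 and 289.5 CPM in pre ABX libraries, against 274, 355 and 274 CPM in pre non-ABX libraries, which overlapped. The averaged ABX difference was -0.22 ± 0.0686 (SE; adjusted p = 0.0743, edgeR), -0.19 after and -0.24 before extinction. Its direction turned with the GC-content trend of each library removed, to 0.09 averaged, 0.06 after and 0.12 before extinction. Without pre non-ABX replicate 3 the value before extinction was -0.11. For stage the log2 fold change was 0.13 ± 0.0688 (SE; adjusted p = 0.278, edgeR).

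Nlgn3 (Entrez 245537, chromosome X, 101299179 to 101321350, plus strand), the neuroligin found at both kinds of synapse, was also lower in each post ABX library than in any post non-ABX library. Its post ABX libraries had 72, 88.3, 92.6 and 80.6 CPM and its post non-ABX libraries 93.4, 112, 98.5 and 99.8 CPM. These ranges did not overlap, although the highest post ABX library, at 92.6 CPM, was close to the lowest post non-ABX one, at 93.4 CPM. Before extinction the values were 63.5, 93.2, 80.6 and 87.7 CPM in pre ABX and 92.9, 108 and 88.7 CPM in pre non-ABX libraries. The log2 fold change was -0.26 ± 0.0805 (SE; adjusted p = 0.0726, edgeR) for ABX averaged over stage, -0.27 after and -0.25 before extinction, and 0.05 (95% interval -0.12 to 0.22) for stage. Without pre non-ABX replicate 3 the ABX value before extinction was -0.16.

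Nlgn1 (Entrez 192167, chromosome 3, 25421808 to 26332866, minus strand), the neuroligin of excitatory synapses, had most of its post-extinction values below its pre-extinction ones, and overlapping ABX and non-ABX libraries. It had 86.2, 103, 88 and 85.6 CPM in post ABX libraries, against 122, 115, 127 and 97.9 CPM in pre ABX libraries. In non-ABX libraries it had 92.7, 92.1, 96.5 and 97.1 CPM after extinction, against 112, 92.8 and 109 CPM before. In ABX libraries replicate 2 after and replicate 4 before extinction crossed into the other stage's range. In non-ABX libraries replicates 3 and 4 after and replicate 3 before extinction did. Averaged over ABX status the stage difference was -0.25 ± 0.0627 (SE; adjusted p = 0.0687, edgeR), with means of 92.6 ± 5.98 CPM after (SD, n = 8) and 111 ± 12.3 CPM before extinction (SD, n = 7). It was -0.35 ± 0.0855 (SE; adjusted p = 0.122, edgeR) within ABX libraries and -0.15 ± 0.092 (SE; adjusted p = 0.896, edgeR) within non-ABX libraries. The interaction was -0.20 (95% interval -0.47 to 0.06). For ABX averaged over stage the log2 fold change was 0.04 (95% interval -0.09 to 0.17). With the GC-content trend of each library removed it was -0.09 for ABX and -0.10 for stage.

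Lrrtm1 (Entrez 74342, chromosome 6, 77229210 to 77259915, plus strand), a postsynaptic neurexin ligand of excitatory synapses, was lower with ABX on average at both stages. It had 29.9, 30, 34.4 and 34.6 CPM in post ABX libraries, against 43.4, 45.4, 39.5 and 36.2 CPM in post non-ABX libraries, with no overlap. Before extinction it had 20.9, 28.5, 29.8 and 30.7 CPM in pre ABX and 32.7, 49.3 and 30.6 CPM in pre non-ABX libraries. The highest pre ABX library exceeded only the lowest pre non-ABX one. Averaged over stage the log2 fold change was -0.40 ± 0.104 (SE; adjusted p = 0.0634, edgeR), with means of 29.9 ± 4.22 CPM in ABX (SD, n = 8) and 39.6 ± 6.88 CPM in non-ABX libraries (SD, n = 7). Without pre non-ABX replicate 3 it was -0.27, and also -0.27 with the GC-content trend of each library removed. For stage it was 0.18 ± 0.104 (SE; adjusted p = 0.31, edgeR). Lrrtm1, Nlgn2 and Nlgn3 were the 3 members whose post ABX and post non-ABX libraries did not overlap, beside 6.36% of all genes with all post ABX libraries lower.

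Lrrtm2 (Entrez 107065, chromosome 18, 35209003 to 35215024, minus strand), the closest functional relative of Lrrtm1 as a neurexin ligand, had no such ABX difference. It had 71.6, 82.7, 70 and 68 CPM in post ABX and 73.2, 89, 94.4 and 70.6 CPM in pre ABX libraries. In non-ABX libraries it had 57, 61.2, 65.8 and 77.5 CPM after and 78.3, 73.9 and 90 CPM before extinction. Post-extinction libraries were on average lower at both ABX states, and the ranges overlapped in each. The stage difference was -0.23 ± 0.0809 (SE; adjusted p = 0.148, edgeR), -0.16 in ABX and -0.30 in non-ABX libraries, and the averaged ABX difference was 0.09 (95% interval -0.08 to 0.26).

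Lrrtm3 (Entrez 216028, chromosome 10, 63928497 to 64090255, minus strand) was the least variable member. It ranged from 54.7 to 64.4 CPM in post ABX, from 57.6 to 65.0 CPM in post non-ABX, from 56.1 to 61.8 CPM in pre ABX and from 57.9 to 61.3 CPM in pre non-ABX libraries. These 4 ranges overlapped, and the averaged log2 fold changes were -0.05 for ABX (95% interval -0.15 to 0.05) and 0.03 for stage (-0.07 to 0.12). Lrrtm4 (Entrez 243499, chromosome 6, 80018858 to 80810162, plus strand), which binds glypicans, had 32.1, 31.8, 30.9 and 30.5 CPM in post ABX and 33.1, 31.4, 32.9 and 31.6 CPM in post non-ABX libraries. It had 36.8, 31.2, 42.2 and 34.8 CPM in pre ABX and 37.1, 33.1 and 33.4 CPM in pre non-ABX libraries. All 8 post-extinction libraries lay between 30.5 and 33.1 CPM, and in non-ABX mice every post library was below every pre library, beside 3.57% of all genes. That separation rests on 33.07 CPM in post non-ABX replicate 1 against 33.09 CPM in pre non-ABX replicate 3, and with the GC-content trend of each library removed the stage difference in non-ABX libraries was 0.0048. The stage difference of Lrrtm4 was -0.16 ± 0.0574 (SE; adjusted p = 0.166, edgeR). The edgeR test called 0 genes of 16816, 0%, for stage within non-ABX libraries, where 830 genes had an unadjusted p under 0.05 and DESeq2 called 19.

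The level of several members followed the GC-content trend of its library. The trend is the log2 difference between genes of 60% and of 40% GC content in that library relative to the others. It ran from -0.25 to 0.24 in post ABX, from 0.09 to 0.58 in post non-ABX, from -0.82 to 0.08 in pre ABX and from -0.28 to 0.66 in pre non-ABX libraries. Its mean was -0.20 ± 0.387 in ABX (SD, n = 8) and 0.23 ± 0.349 in non-ABX libraries (SD, n = 7). Over the 15 libraries the log2 CPM of Nlgn2 had Pearson's r = 0.977 and Spearman's rho = 0.936 with the trend (permutation p = 1e-05, the smallest that the permutations can give, and 2e-05, adjusted over the 9 members 3e-05 and 6e-05). Nrxn2 had r = 0.966 and rho = 0.957, and Lrrtm1 r = 0.93 and rho = 0.95 (all 4 permutation p = 1e-05, adjusted 3e-05 for r and 4.5e-05 for rho). Without the 2 libraries farthest from the median trend, r was 0.959 for Nlgn2, 0.954 for Nrxn2 and 0.939 for Lrrtm1. On deviations from the 4 group means it was 0.969, 0.964 and 0.887 in the same order of genes, so the relation also held between libraries of 1 group. The trend was computed from these same counts. Genes of very high or very low GC content therefore tend to follow it or run against it by how it is built. The permutation p-values do not show a relation particular to the members, and the share of all genes with a like r was not computed.

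Nlgn3 followed the trend less closely, with r = 0.781 and rho = 0.704 (permutation p = 4.4e-04 and 0.00467, adjusted 9.9e-04 and 0.007). Without the 2 farthest libraries its r was 0.63. Members of low GC content ran the other way. Nlgn1 had r = -0.78 and rho = -0.725 (permutation p = 6.3e-04 and 0.003, adjusted 0.00113 and 0.0054), and Lrrtm2 r = -0.67 and rho = -0.729 (permutation p = 0.00648 and 0.00264, adjusted 0.00972 and 0.0054). Without the 2 farthest libraries r was -0.582 for Nlgn1 and -0.751 for Lrrtm2. Lrrtm4 had r = -0.573 and rho = -0.393 (permutation p = 0.0249 and 0.148, adjusted 0.032 and 0.167), which rests on 2 libraries, since r without them was -0.14. For Nrxn3 r was -0.173 and rho -0.396 (permutation p = 0.536 and 0.144, adjusted 0.603 and 0.167), and for Lrrtm3 r was 0.0677 and rho 0.0536 (permutation p = 0.81 and 0.853, adjusted 0.81 and 0.853). Where a gene's level and the trend differ between groups at once, their shares in a group difference cannot be told apart from the counts alone.

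**Figure D3:**
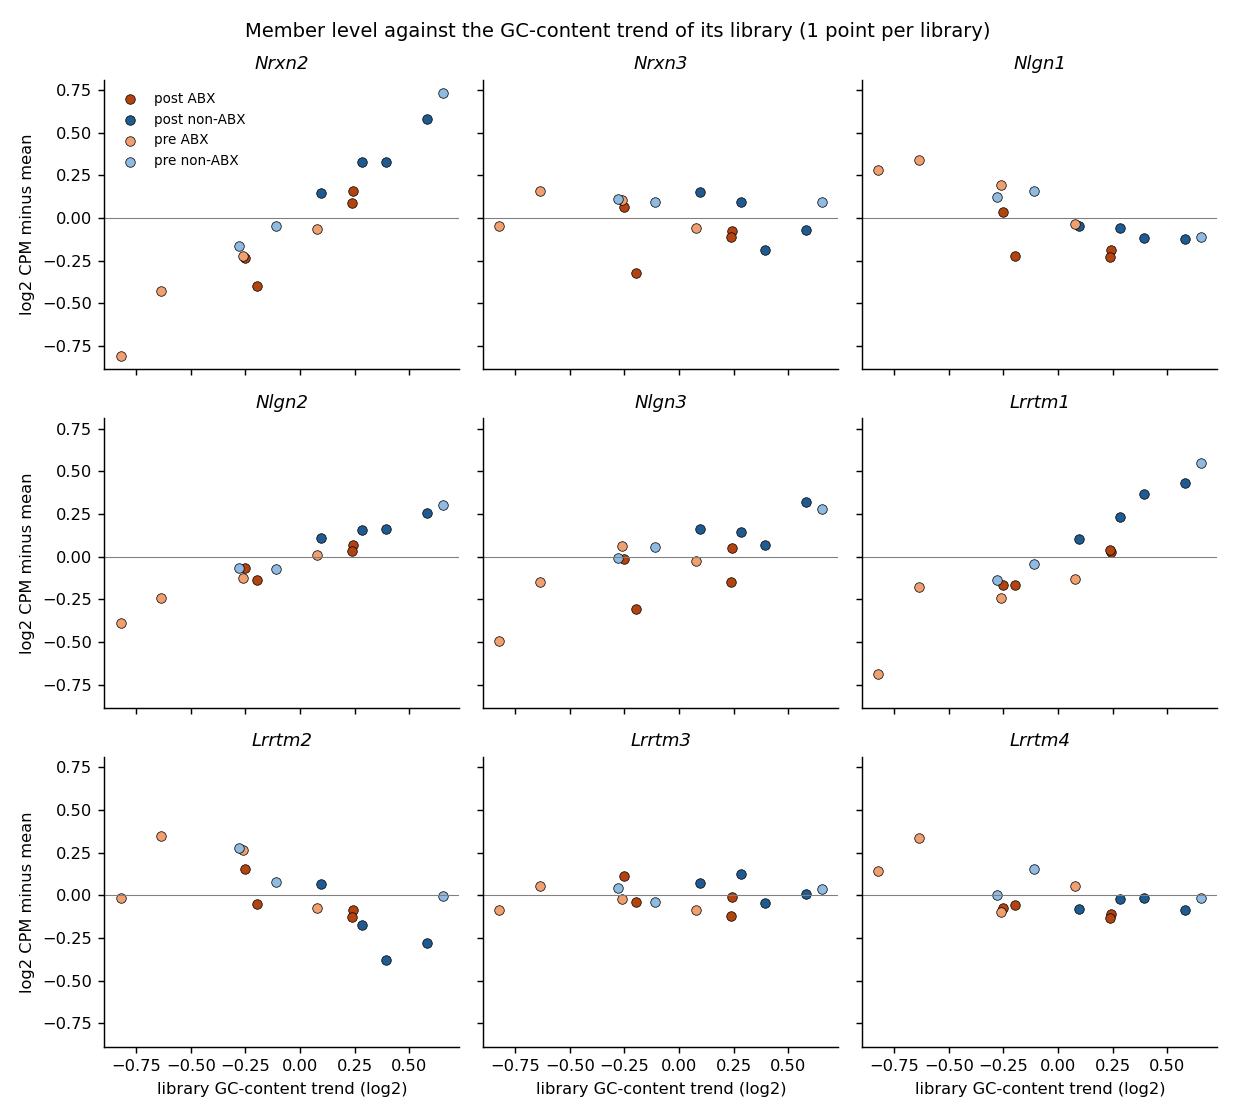
Log2 CPM of each gene minus its mean over 15 libraries (y axes) against the GC-content trend of the library in log2 units (x axes), with 1 point per library coloured by group. Nrxn2, Nlgn2 and Lrrtm1 rise with the trend (r = 0.966, 0.977 and 0.93), Nlgn1 and Lrrtm2 run against it (r = -0.78 and -0.67), and Nrxn3 and Lrrtm3 show little slope.

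With the trend of each library removed as an offset, the members split differently for ABX averaged over stage. Nlgn3 and Lrrtm1 fell with ABX: Nlgn3 had a log2 fold change of -0.29 ± 0.0785 (SE; adjusted p = 0.049, edgeR) and Lrrtm1 of -0.27 ± 0.0663 (SE; adjusted p = 0.0357). These 2 of 9 members stand beside 4.17% of the genes tested, 2.48% lower with ABX. The GC content of Nlgn3, 49.3%, is close to the median of 49.9%, and the offset moved its value only from -0.26 to -0.29. Its level as counted nonetheless followed the trend with r = 0.781. Whether it still did so after the removal was not tested. Nrxn2 was at -0.14 (adjusted p = 0.0771), and Nlgn2 changed sign to 0.09 (adjusted p = 0.277). The other 5 members were between -0.14 for Lrrtm3 (adjusted p = 0.0675) and -0.04 for Lrrtm2. The calls depended on how GC content was taken. With the GC content of the coding sequence in place of the whole transcript, Nlgn3 was at -0.20 (adjusted p = 0.0722), Lrrtm1 at -0.21 (0.0526), Nrxn2 at -0.25 (0.0525) and Nlgn2 at 0.03 (0.644), and 0 of 9 members were called beside 2.7% of all genes. For stage, removal of the trend moved Nlgn1 to -0.10 (adjusted p = 0.246), Lrrtm2 to -0.09 (0.523) and Lrrtm4 to -0.01 (0.97), with 0 of 9 called beside 2.15% of all genes.

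The ABX calls also moved with the test and with single libraries. DESeq2 called 4 members lower with ABX averaged over stage, Nrxn2 (adjusted p = 0.0130), Lrrtm1 (0.0121), Nlgn3 (0.0342) and Nlgn2 (0.0371), beside 13% of all genes. Without pre ABX replicate 4, edgeR called the same 4 genes, with adjusted p between 0.0258 and 0.0357, beside 18.2% of all genes. Without pre non-ABX replicate 4 it called Nrxn2 and Lrrtm1, both at 0.0465, beside 6.2%. With pre ABX replicate 1 and pre non-ABX replicate 3, the libraries of lowest and highest trend, left out together, the differences were -0.28 for Nrxn2, -0.22 for Lrrtm1, -0.17 for Nlgn3 and -0.12 for Nlgn2, with 0 members called beside 0.0236% of all genes. For stage, DESeq2 called Nlgn1 alone (adjusted p = 0.0117, beside 4.49% of all genes). Nlgn1 was also called by edgeR without pre ABX replicate 4 (0.0169 averaged over ABX status and 0.0292 within ABX libraries, beside 4.45% and 1.41% of all genes) and without post ABX replicate 2 (0.0422, beside 1%). Without pre non-ABX replicate 3, edgeR called Nrxn2, Nlgn2 and Lrrtm1 higher and Nlgn1 lower after extinction, with adjusted p from 0.0235 to 0.0497, beside 13.3% of all genes. With pre ABX replicate 1 left out as well, it called 1219 of 16940 genes for stage. Among them were Nlgn1, lower (-0.27, adjusted p = 0.0337), and Lrrtm1, higher (0.25, adjusted p = 0.0423).

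**Figure D4:**
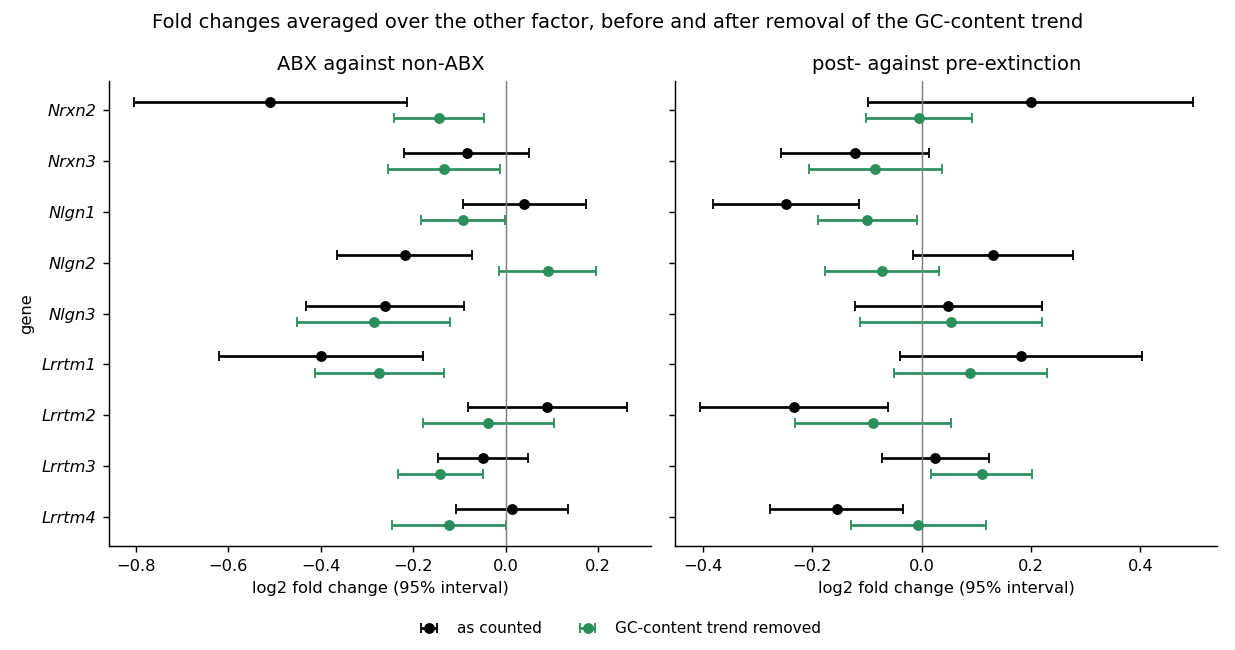
Log2 fold changes of the 9 genes (x axes) for ABX against non-ABX (left) and post- against pre-extinction (right), each averaged over the other factor, with points for the estimate and bars for the 95% interval, from the counts as they are (black) and with the GC-content trend of each library removed (green). Nlgn2 for ABX is at -0.22 in black and 0.09 in green, while Nlgn3 is at -0.26 and -0.29.

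In the remaining comparisons 0 of 9 members were called. The share of all genes called was 0.0178% for ABX after extinction, 0.00595% for ABX before extinction, 0.0951% for stage in ABX libraries and 0% for the interaction. Member adjusted p ran from 0.324 to 0.813 for ABX after extinction, from 0.311 to 0.932 before it, and from 0.122 to 0.863 for stage in ABX libraries. For the interaction 0 of 9 members had an unadjusted p under 0.05, beside 2.06% of all genes (346 genes; DESeq2 called 4 at its adjusted threshold). The 95% intervals of the members reached 0.194 to 0.591 to either side of the estimate there, and all held 0.

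Other neurexin ligands were measured as a list of 25 genes, 24 of them tested. For ABX averaged over stage, 0 of 24 were called, 12 had a positive and 12 a negative log2 fold change, and the median was 0.00 against 0.01 over all genes. Clstn3, the calsyntenin that binds neurexins, averaged 483 ± 60 CPM in ABX (SD, n = 8) and 609 ± 63 CPM in non-ABX libraries (SD, n = 7), a log2 fold change of -0.33 (edgeR adjusted p = 0.0634), and -0.15 (0.0551) with the GC-content trend of each library removed. Igsf21, a neurexin ligand of inhibitory synapses, averaged 19.1 ± 5.44 CPM in ABX and 25.7 ± 6.35 CPM in non-ABX libraries (-0.45, adjusted p = 0.109). Its GC content is 62.2%, and it was at -0.088 (adjusted p = 0.603) with the trend removed and between -0.54 and -0.24 with single libraries left out. The secreted cerebellins, which bridge neurexins to glutamate receptor delta subunits, had log2 fold changes of 0.12 for Cbln1, -0.0048 for Cbln2 and -0.19 for Cbln4, with adjusted p of 0.489, 0.968 and 0.28. With the trend removed these were 0.29 for Cbln1, -0.04 for Cbln2 and -0.22 for Cbln4, with 0 of the 3 called. The neurexophilins Nxph1 and Nxph3, which bind alpha-neurexins, were at 0.13 and 0.01 (adjusted p = 0.209 and 0.963), and with the trend removed at 0.06 and 0.29 (0.436 and 0.206).

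For stage averaged over ABX status, 1 of 24 neurexin ligands was called, beside 0.963% of all genes. Tafa1, a secreted ligand that binds neurexins during their maturation, fell to 38.3 ± 4.16 CPM after extinction (SD, n = 8), against 49.7 ± 6.3 CPM before it (SD, n = 7), with a log2 fold change of -0.37 ± 0.0815 (SE; adjusted p = 0.0416, edgeR). It ranged from 31.8 to 44.3 CPM in post-extinction and from 40.2 to 56.4 CPM in pre-extinction libraries, which overlapped. It was called under 12 of 24 other settings, with adjusted p between 0.00221 and 0.156 and fold changes between -0.41 and -0.22. Under the other settings the share of all genes called reached 4.49% with DESeq2 and 13.3% without pre non-ABX replicate 3. With the GC-content trend removed Tafa1 was still called (-0.22, edgeR adjusted p = 0.0441), beside 2.15% of all genes. Its GC content was 39.8%. The list as a whole had 12 positive and 12 negative values, with a median of -0.01 against 0.00 over all genes.

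Among 7 genes listed as neuroligin regulators, 0 were called for ABX or for stage. Mdga1, which blocks neuroligins from binding neurexins, averaged 14.9 ± 2.42 CPM in ABX and 20.6 ± 4.54 CPM in non-ABX libraries, a log2 fold change of -0.48 (edgeR adjusted p = 0.0679). With the GC-content trend of each library removed it was at -0.22 (adjusted p = 0.226). Its paralog Mdga2 was at 0.15 (0.206) for ABX. For stage Mdga2 averaged 31.1 ± 3 CPM after and 38.1 ± 5.43 CPM before extinction (-0.28, adjusted p = 0.102), and with the trend removed its stage difference was -0.15 (0.097). Medians of the list were 0.05 for ABX and -0.06 for stage, against 0.01 and 0.00 over all genes.

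Of 22 intracellular partners, 0 were called for ABX or for stage. Dlg4, the postsynaptic scaffold PSD-95 that binds neuroligins, averaged 691 ± 100.4 CPM in ABX and 875 ± 125 CPM in non-ABX libraries (-0.33, edgeR adjusted p = 0.0679). Gphn, the inhibitory scaffold gephyrin that binds Nlgn2, was at 0.0021 (adjusted p = 0.981). Cask, a presynaptic scaffold that binds neurexins, was at 0.08 (0.317), and the scaffold Magi2 at -0.08 (0.204). For stage the values were 0.18 for Dlg4, -0.11 for Gphn, -0.14 for Cask and -0.14 for Magi2, with adjusted p of 0.27, 0.229, 0.192 and 0.122. Of 16 genes for splicing and shedding, 0 were called for either. Khdrbs3, a splicing factor of neurexin transcripts, was at 0.03 for ABX and -0.09 for stage, and Adam10, a protease that sheds neurexins and neuroligins, at 0.10 and -0.12, with adjusted p between 0.269 and 0.686.

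Among 37 tested genes of other synaptic adhesion families, 0 were called for ABX or for stage, and 26 had a negative log2 fold change for ABX (median -0.07 against 0.01 over all genes). With the GC-content trend removed, 4 of these 37 genes fell with ABX, beside 4.17% of all genes called and 2.48% called lower on that scale: the netrin-G Ntng2 (-0.23), Lrrc4 (-0.14), Lrrc4b (-0.35) and Slitrk4 (-0.20), with edgeR adjusted p between 0.0355 and 0.0394. On the same scale Dag1, the dystroglycan that binds neurexins, was called (-0.23, adjusted p = 0.0288), as were the postsynaptic scaffolds Dlg4 (-0.39, 0.0475) and Dlgap3 (-0.27, 0.0426). For stage, where 2.15% of all genes were called, Ntng1 (-0.30, adjusted p = 0.0234), Magi2 (-0.16, 0.0372) and Tafa1 fell and the neurotrophin receptor Ntrk3 rose (0.21, 0.0406). Dag1, Dlgap3, the Lrrc4 and netrin-G genes, Slitrk4 and Ntrk3 were singled out after their values were seen.

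The genes whose log2 CPM was most like that of a member over the 15 libraries are given as a description, among 9576 genes with a mean of at least 10 CPM, and the points share libraries, depth and the GC-content trend. Nrxn2 was closest to Elfn1 (r = 0.996) and Ttbk1 (0.994), Nlgn2 to Bag6 (0.994) and Khsrp (0.993), Lrrtm1 to Aldh2 (0.979) and Insyn1 (0.978), and Nlgn3 to Eif4g1 (0.981) and Kif3c (0.979). Nlgn1 was closest to Dgkb (0.976) and Tafa1 (0.964), Lrrtm2 to Edrf1 (0.95) and Rnf152 (0.948), and Nrxn3 to Cntnap2 (0.954) and Dock3 (0.952). Lrrtm3 with Ctr9 (0.888) and Cobl (0.885) and Lrrtm4 with Pdp1 (0.876) had looser neighbours. The closest genes of Nrxn2, Nlgn2 and Lrrtm1 had a GC content of 54.8% to 62.8%, and those of Nlgn1 of 39.8% and 40%. With the GC-content trend removed Kif3c stayed among the 2 closest genes of Nlgn3 (r = 0.969), and for the other 8 members both neighbours were replaced. Nrxn2 and Nlgn2 had r = 0.986 with each other as counted and -0.37 with the trend removed, and Nlgn3 and Lrrtm1 had 0.838 and 0.841. A positive r with the trend removed was not particular to Nlgn3 and Lrrtm1. Every pair of members without Nlgn2 had one, from 0.11 for Lrrtm2 with Lrrtm4 to 0.922 for Nrxn2 with Nlgn3. Pairs with Nlgn2 ran from -0.732 with Lrrtm4 to 0.008 with Nrxn3.

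Several members lie with other genes on the same stretch of genome, and the library kit does not keep strand. Lrrtm1 lies within Ctnna2 and Lrrtm3 within Ctnna3, each on the opposite strand with 0 exonic bases shared, and Lrrtm2 within Ctnna1 with 95 shared, 1.58% of its exons. Ctnna2 averaged 205 ± 14.3 CPM in ABX and 197 ± 9.08 CPM in non-ABX libraries, a log2 fold change of 0.05 (edgeR adjusted p = 0.438). Ctnna1 averaged 55.15 ± 3.045 CPM in ABX and 60 ± 2.876 CPM in non-ABX libraries (-0.11, edgeR adjusted p = 0.111). Ctnna3 was at 1.42 CPM in ABX and 1.28 CPM in non-ABX libraries. The part of host gene reads in the counts of the Lrrtm genes was not tested. Nlgn3 shares 41.2% of its exonic bases with Gm21986 on the same strand, Lrrtm4 25.1% with the antisense Gm4409, Nlgn1 9.16% with the antisense A830092H15Rik, Nrxn2 4.94% with Slc22a12 and Nrxn3 3.48% with Gm37980. Reads in those stretches could not be assigned to 1 gene from the counts, so the levels of Nlgn3 and Lrrtm4 carry that limit.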

How the data were processed

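The authors deposited unnormalized counts, 1 row per Entrez gene. The build mm10 and the tools STAR 2.3.0 and CASAVA 1.8.2 are listed in the submitters' processing notes, with no counter or annotation. The library kit, SMARTer Ultra Low Input V4 per the labels' protocols, keeps no strand. That text also mentions sorted cells, while the source is dissected tissue. All count columns were mapped to labelled samples. No 2 libraries of a group matched within counting noise.

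The function filterByExpr of edgeR 4.0.16 (R 4.3.3) selected genes, at a minimum count of 10 and a minimum total of 15, and TMM factors ran from 0.969 to 1.03. A quasi-likelihood model with 4 group means was fitted to all libraries. The 7 comparisons were two-sided, with p adjusted by Benjamini-Hochberg over all 16816 genes and a threshold of 0.05. The common biological coefficient of variation, 1 value over all genes tested, was 0.112. The GC correction used a spline of 5 degrees of freedom per library for the 91.2% of tested genes with a value. Transcript and coding sequences, lengths and overlaps come from GENCODE vM21 (GRCm38), taken in place of the RefSeq transcripts first planned, and loci from RefSeq. The other settings were DESeq2 1.42.0, RLE scaling, no filter, a filter at mean 1 CPM, a replicate block, GC content, and each library left out. The coding GC content and the joint omission of 2 libraries were added after seeing the data. The code was tested on simulated data.

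Members and lists were chosen with earlier results of these data known. Besides the members, partners were named by role, as was any list gene called, and for each member the 2 genes of highest correlation, of which 1 is not reported here.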

Additional observations from a re-analysis of the deposited data

Results flagged for a closer look

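Nlgn1 in replicate 2 of post ABX was far from the other 3 libraries of its group, at 102.8 CPM against 85.6 to 88.0 CPM. Its gap to the nearest library was 0.858 of the group's range, where 0.829 is the limit for 4 samples. 27 gene and group combinations with 4 libraries were examined, and chance alone flags about 1 in 20. Without this library the stage difference of Nlgn1 averaged over ABX status was -0.28 (edgeR adjusted p = 0.0422, beside 1% of all genes called), and with it -0.25 (0.0687). With all libraries and the GC-content trend removed it was -0.10 (edgeR adjusted p = 0.246).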

How the results depend on the processing

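Of 1233 member fold changes recomputed under other settings, 1109 kept their direction and stayed uncalled, 92 changed sign without a call and 32 became called. The parts of depth and of spread between libraries in these changes were not tested.

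By DESeq2 the counts of genes called were 16 for ABX before extinction, 182 for ABX after it, 284 for stage in ABX and 19 in non-ABX libraries, and 4 for the interaction. Averaged, DESeq2 called 1965 genes for ABX (4 members, 4 neurexin ligands, 4 neuroligin regulators, 12 other adhesion genes, 7 intracellular partners and 1 splicing or shedding gene) and 697 for stage (1 member, 2 ligands, 1 regulator, 4 other adhesion genes and 1 intracellular partner). For stage in ABX libraries it called 1 member, 1 ligand and 1 other adhesion gene. With no filter 2 genes were called for ABX before extinction, 2 for stage in non-ABX libraries and 1 other adhesion gene for stage. A filter at mean 1 CPM gave 2 ligands and 1 other adhesion gene for stage, and RLE scaling 2 other adhesion genes.

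Deviations from the group mean correlated from -0.491 to 0.374 between same-numbered libraries, with 8 of 21 pairs over 0.1. Between libraries of different numbers they correlated from -0.524 to 0.582, with 23 of 63 pairs over 0.1. The deviations still carried the GC-content trend, so they cannot decide whether the replicate numbers mark a pairing. With the replicate block 666 of 16816 genes were called for averaged ABX and 96 for stage. For averaged ABX these held 3 of 9 members, 3 of 24 ligands and 1 of 7 regulators. 6 of 37 other adhesion genes and 2 of 22 intracellular partners were called there too. With the block and the GC-content trend removed, averaged ABX gave 1740 of 15332 genes, and Tafa1 changed sign to -0.15 and was called. Among the 1740 were 5 of 9 members, 5 of 24 ligands and 2 of 7 regulators. They also held 16 of 37 other adhesion genes, 6 of 22 intracellular partners and 1 of 16 splicing or shedding genes. The 5 members were Nrxn2 (-0.16), Nrxn3 (-0.15), Nlgn3 (-0.32), Lrrtm1 (-0.28) and Lrrtm3 (-0.15), with edgeR adjusted p from 0.00463 to 0.0368. The same setting gave 576 genes for stage (2 ligands, 6 other adhesion genes, 1 intracellular partner) and 5 for ABX before extinction. For ABX after extinction it gave 419 of 15332 genes, with 1 of 9 members, Nlgn3, lower with ABX (edgeR adjusted p = 0.0404). These also held 2 of 24 ligands and 4 of 37 other adhesion genes. Stage gave 191 genes in ABX libraries (1 ligand, 1 other adhesion gene, 1 intracellular partner) and 31 in non-ABX libraries.

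With the trend removed alone, 640 genes were called for averaged ABX (2 members, 1 ligand, 4 other adhesion genes, 2 intracellular partners), 330 for stage (1 ligand, 2 other adhesion genes, 1 intracellular partner), 51 for ABX after extinction, 78 for stage in ABX and 2 in non-ABX libraries. With coding GC content these were 407 (2 ligands, 4 other adhesion genes, 1 intracellular partner, 1 splicing or shedding gene), 323 (1 ligand, 1 other adhesion gene, 1 intracellular partner), 32 and 43 for the first 4. Without pre ABX replicate 1 and pre non-ABX replicate 3 together, 4 of 16940 genes were called for averaged ABX and 1219 for stage. For stage these 1219 of 16940 genes held 2 of 9 members, Nlgn1 lower and Lrrtm1 higher after extinction. They also held 3 ligands, 1 regulator, 6 other adhesion genes and 1 intracellular partner.

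With single libraries left out, genes called ran from 1 to 28 for ABX before extinction, 0 to 6 after it, 3 to 237 for stage in ABX and 0 to 1 in non-ABX libraries. Averaged ABX gave 4 to 3057 genes, 0 to 4 members, 0 to 4 ligands, 0 to 2 regulators, 0 to 14 other adhesion genes, 0 to 7 intracellular partners and 0 to 2 splicing or shedding genes. Averaged stage gave 14 to 2262 genes, 0 to 4 members, 0 to 2 ligands, 0 to 2 regulators, 0 to 9 other adhesion genes, 0 to 5 intracellular partners and 0 to 1 splicing or shedding gene. Stage in ABX libraries gave 0 to 1 member, 0 to 1 ligand and 0 to 5 other adhesion genes. The cause of these changes was not tested.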
